A study of Mus musculus with 4 samples.

Results

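Cytosolic ribosomal protein genes encode the proteins of the small and the large subunit of the ribosome that translates nuclear-encoded mRNA. They were taken by name, as every gene called Rps or Rpl with a number, plus Rpsa, Rplp0, Rplp1 and Rplp2, leaving out names that mark pseudogenes and the Rps6 kinases. The rule found 87 of 20640 genes, 35 of the small subunit, 49 of the large subunit and 3 of the acidic stalk, and the same 87 in each of 4 libraries. Of the 87, 82 are annotated as coding and 5 as pseudogenes although their names do not say so (Rpl32l, Rpl6l, Rps3a2, Rps3a3 and Rps4l).

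The cells came from lungs of female C57BL/6 mice, 8 weeks old, that carried HKP1 tumours, grown from 150000 cells of a lung adenocarcinoma line described as lacking p53 given through the tail vein. Irradiated mice received 4 Gy on 3 consecutive days, days 10 to 12, and the mice they are set against were mock-treated (0 Gy). Between 24 and 48 h after the third of these days the lungs of 4 mice per treatment were collected and sorted as live cells without or with CD45, the surface protein of leukocytes, before droplet sequencing of the 3′ ends of mRNA. Each dose and sort is 1 library, so no difference between doses has a replicate check or a test, the mice behind a library cannot be told apart, and every 95% interval given covers counting error only. As a check of the sort, Ptprc, the gene of CD45, had 0 to 2.85 CPM (its part of all UMIs of a class, scaled to a common total) at 4 Gy and 0 to 2.04 CPM at 0 Gy in the 3 classes sorted without CD45, and 408 to 2051 CPM at 4 Gy and 357 to 1740 CPM at 0 Gy in the 8 sorted with it. The 4 Gy and 0 Gy libraries held 4313 and 5979 barcodes without CD45, and 9608 and 5415 barcodes with CD45. Their totals were 12448164 UMIs (counted molecules) at 4 Gy and 14885765 UMIs at 0 Gy without CD45, and 36423571 UMIs at 4 Gy and 24045901 UMIs at 0 Gy with CD45. Pairs of libraries shared 3 to 17 barcode sequences.

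Each ribosome needs nearly all of these proteins, and growing cells make large amounts of their mRNAs. Many of these mRNAs begin with a C followed by a run of pyrimidines, through which mTOR signalling and LARP1 set how strongly they are translated. Ribosomal proteins not built into ribosomes, among them Rpl5 and Rpl11, bind Mdm2, the ubiquitin ligase that degrades p53, and in human cells RPS27L, a close relative of RPS27, is itself switched on by p53. Most of these mRNAs also have near-identical pseudogenes in the mouse genome. A search of the annotated transcripts (at least 90% identity over at least 70% of the coding sequence) found 595 further columns that are copies of 77 members, 582 of them annotated as pseudogenes and 13 as coding.

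The values of 1 gene can therefore be spread over several columns. A family below is a member with all its copies summed, and there were 83 families, since members that resemble each other share 1. Over the 4 libraries the median member's own column held 29.2% of its family's UMIs, and the share ran from 0.100% for Rpl28 to all of them for members with no copy. Rpl8 and Rplp2 are among the abundant members for which none was found. Rps16 is an extreme of the other kind. Its coding sequence of 438 bases (gene on chr7:28350652-28353155, plus strand, GRCm38) stands whole in the pseudogene Rps16-ps2, so that a read inside it matches both equally. Its first 60 bases, shown because they are shared base for base with that copy, are:

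Rps16: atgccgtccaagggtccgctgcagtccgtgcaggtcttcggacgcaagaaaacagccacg

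Cell classes were gated on marker genes, a cell taking the class with the most distinct markers detected if these were at least 2 and more than for any other class. With at least 50 cells at both doses there were 3 classes without CD45 (endothelial-like, tumour epithelial-like and mesenchymal-like) and 8 with CD45 (B-, T-, NK- and neutrophil-like cells, classical and nonclassical monocyte-like cells, interstitial macrophage-like and cDC2-like cells). After removal of doublets the endothelial-like class held 3900 cells at 4 Gy and 5241 at 0 Gy, the tumour epithelial-like class 58 cells at 4 Gy and 127 at 0 Gy, and the mesenchymal-like class 62 cells at 4 Gy and 109 at 0 Gy. The B-like class held 3387 cells at 4 Gy and 2309 at 0 Gy, and the T-like class 2342 cells at 4 Gy and 1251 at 0 Gy. Shares are percentages of all UMIs of a class, so fewer ribosomal protein mRNAs and more of other mRNAs per cell cannot be told apart.

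The share of UMIs on ribosomal protein genes separated the classes far more than the doses did. In T-like cells the members and their copies took 32.8% of all UMIs at 4 Gy and 31.4% at 0 Gy, the highest share of the 11 classes. B-like cells followed with 27.0% at 4 Gy and 27.0% at 0 Gy, and tumour epithelial-like cells with 21.3% at 4 Gy and 23.5% at 0 Gy. Endothelial-like cells stood lowest, with 7.11% at 4 Gy and 7.27% at 0 Gy, next to neutrophil-like cells with 8.29% at 4 Gy and 9.37% at 0 Gy. Without the copies the same shares were 13.2% at 4 Gy and 12.5% at 0 Gy in T-like cells, 10.9% at 4 Gy and 10.7% at 0 Gy in B-like cells, and 2.83% at 4 Gy and 2.96% at 0 Gy in endothelial-like cells.

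Neighbours in this order overlapped over single cells. The middle 50% of T-like cells lay between 25.2% and 40.7% at 4 Gy and between 22.6% and 39.9% at 0 Gy. The middle 50% of B-like cells, 24.8% to 30.9% at 4 Gy and 24.9% to 31.1% at 0 Gy, lay inside those ranges. Endothelial-like cells ran from 5.17% to 7.79% at 4 Gy and from 5.15% to 8.04% at 0 Gy, below the middle 50% of every class but neutrophil-like cells at both doses. Neutrophil-like cells were skewed, with a median cell at 4.47% at 4 Gy and 4.26% at 0 Gy, under the share pooled over the class.

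**Figure D1:**
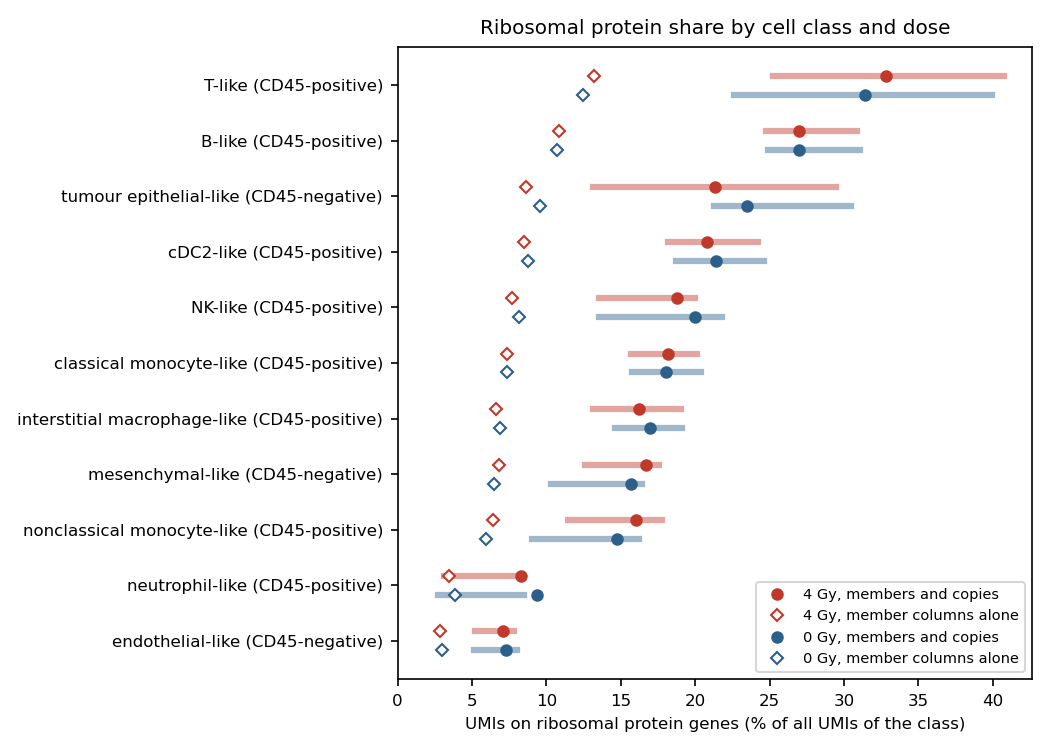
Share of all UMIs on ribosomal protein genes, in percent, in 11 gated classes at 4 Gy (red) and 0 Gy (blue), highest class at the top. Filled circles give members and copies pooled over the class, bars the middle 50% of its single cells, and open diamonds the 87 member columns alone; the classes span 7.11% to 32.8% at 4 Gy while doses within a class lie close together.

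The 4 Gy over 0 Gy ratio of the share, members and copies together, lay between 0.884 and 1.088 in all 11 classes. Endothelial-like cells had a ratio of 0.977 [0.974–0.981]. Tumour epithelial-like cells had 0.908 [0.900–0.916] and mesenchymal-like cells 1.063 [1.055–1.071]. B-like cells had 1.001 [0.999–1.002], T-like cells 1.045 [1.043–1.047], NK-like cells 0.937 [0.933–0.942] and neutrophil-like cells 0.884 [0.878–0.890]. These intervals are narrow because they hold no variation between mice. The NK-like ratio depended on cell depth, and was 0.952 with each cell thinned to 1000 UMIs and 1.004 in cells of 1000 to 5000 UMIs. The neutrophil-like ratio did so too, and was 0.977 with each cell thinned to 1000 UMIs and 1.043 in cells of 1000 to 5000 UMIs. Summed immediate early and dissociation genes, a mark of handling, stood at 8902 CPM at 4 Gy and 10920 CPM at 0 Gy in neutrophil-like cells, and at 2111 CPM at 4 Gy and 1583 CPM at 0 Gy in endothelial-like cells. Haemoglobin genes, which cells that are not erythroid pick up as free RNA, stood at 1925 CPM at 4 Gy and 2868 CPM at 0 Gy in endothelial-like cells. The part of these genes in the shares was not tested.

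Within the T-like class the subsets had ratios on both sides of 1. Naive-like CD8 T cells had the highest share of the gates compared, 38.3% at 4 Gy and 40.3% at 0 Gy, a ratio of 0.952. Naive-like CD4 T cells had 34.4% at 4 Gy and 36.1% at 0 Gy, also 0.952. Effector-like CD8 T cells had 27.2% at 4 Gy and 25.9% at 0 Gy, a ratio of 1.050, and effector-like CD4 T cells 22.2% at 4 Gy and 21.6% at 0 Gy, a ratio of 1.029. Over all cells the naive-like ratios were below 1 and the effector-like ratios above it, a difference that could not be tested with 1 library a dose. The naive-like direction depended on depth. With cells thinned to 1000 UMIs the naive-like CD8 ratio was 0.980 and the naive-like CD4 ratio 1.005, and in cells of 1000 to 5000 UMIs they were 1.027 for CD8 and 1.014 for CD4. The effector-like ratios in cells of that depth were 1.138 for CD8 and 1.057 for CD4. Of the T-like cells, 616 of 2342 fell in the naive-like CD8 gate at 4 Gy, against 278 of 1251 at 0 Gy.

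Rps27l was the member that differed most between doses in endothelial-like cells. It had 448 CPM at 4 Gy (4403 UMIs) and 179 CPM at 0 Gy (2016 UMIs), a ratio of 2.499 [2.37–2.64]. The ratio was 2.56 [2.40–2.73] in general capillary-like cells, 2.43 [2.10–2.81] in aerocyte-like cells and 2.34 [1.84–2.999] in arterial-like cells. General capillary-like cells with a Lyve1 UMI had 2.51 and those with none had 2.52. A Lyve1 UMI was found in 2352 of 2936 of these cells at 4 Gy and in 2030 of 3820 at 0 Gy. Each part may therefore hold differently selected cells at the 2 doses. Summed with its copies the endothelial-like ratio was 2.47 [2.37–2.58], and its own column held 66.1% of the family at 4 Gy and 65.4% at 0 Gy.

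Its relative Rps27 did not move with it. Rps27 and its copies stood at 1212 CPM at 4 Gy and 1210 CPM at 0 Gy in endothelial-like cells, a ratio of 1.001 [0.98–1.03]. Rps27l therefore made up 35.9% of the UMIs of both families at 4 Gy and 18.5% at 0 Gy. In B-like cells it made up 2.71% at 4 Gy and 1.68% at 0 Gy, and in tumour epithelial-like cells 19.7% at 4 Gy and 15.7% at 0 Gy. In these 2 classes Rps27 with its copies was itself lower at 4 Gy, with ratios of 0.67 in B-like and 0.81 in tumour epithelial-like cells. Rps27l with its copies had 1.06 in tumour epithelial-like cells and 0.80 to 1.23 over the 8 leukocyte classes. A higher part of the pair there is therefore not a like rise of Rps27l. The 2 genes can be told apart by sequence. Their coding sequences have 252 bases each without the stop codon, differ at 60 of them and are 76.2% identical. They are written 5′ to 3′ from GENCODE transcripts on GRCm38, with the bases that differ in capitals; Rps27l lies on chr9:66946086-66949516 (plus strand) and Rps27 on chr3:90212522-90213651 (minus strand).

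Rps27l: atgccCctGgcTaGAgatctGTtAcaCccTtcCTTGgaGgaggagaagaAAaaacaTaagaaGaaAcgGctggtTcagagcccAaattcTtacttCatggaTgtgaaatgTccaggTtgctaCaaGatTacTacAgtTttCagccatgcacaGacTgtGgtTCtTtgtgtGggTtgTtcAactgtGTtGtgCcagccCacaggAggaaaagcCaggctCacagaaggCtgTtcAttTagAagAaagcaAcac
Rps27: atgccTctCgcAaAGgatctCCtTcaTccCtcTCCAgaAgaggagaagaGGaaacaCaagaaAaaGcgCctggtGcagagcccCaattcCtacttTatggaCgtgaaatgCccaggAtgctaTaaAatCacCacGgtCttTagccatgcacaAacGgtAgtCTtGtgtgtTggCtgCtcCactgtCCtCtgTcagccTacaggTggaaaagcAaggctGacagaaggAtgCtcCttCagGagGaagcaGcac

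The annotated starts of the 2 genes were compared too. The windows below run from 10 bases before the annotated start to 15 bases from it, in RefSeq on GRCm38.p6, with the pyrimidine run that begins with C at the start in capitals; Rplp2, a stalk member, is shown as a further case with a run. Rps27 has a run of 7 bases (window chr3:90213634-90213658, minus strand) and Rplp2 a run of 5 (chr7:141447641-141447665, plus strand). Rps27l has none at its annotated start (chr9:66946076-66946100, plus strand). The base there is g and the pyrimidines cctct follow directly, so the lack of a run depends on the annotated position.

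Rps27l: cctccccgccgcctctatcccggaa
Rps27: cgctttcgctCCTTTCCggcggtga
Rplp2: cagcgtcttcCTTTCgccgccggac

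A run of this kind, C at the start followed by 4 bases that are each C or T on the gene's own strand, was found in 14 of 75 RefSeq start windows of 63 matched members, or 18.7%, against 823 of 32851 windows of all genes, or 2.51%. Annotated starts can be off by some bases, so windows with none say only that the letters are not at that position.

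Outside the endothelium the ratio of the Rps27l column alone lay between 0.93 and 1.28. With its copies summed it ran from 0.80 to 1.23 over the 8 leukocyte classes. In tumour epithelial- and mesenchymal-like cells it was 1.06 to 1.14. The column's part of the family differed between doses in some classes. It was 77.3% at 4 Gy and 65.5% at 0 Gy in NK-like cells, but 71.4% and 71.5% in cDC2-like cells. The Rps27l values that follow are of the column alone. Tumour epithelial-like cells had 395 CPM at 4 Gy and 385 CPM at 0 Gy, a ratio of 1.03 [0.82–1.27]. Trp53, the gene of p53, had 19.0 CPM at 4 Gy (6 UMIs) and 19.6 CPM at 0 Gy (14 UMIs) in this class, against 66.4 CPM at 4 Gy and 72.8 CPM at 0 Gy in endothelial-like cells, and counts of 3′ ends do not show whether the rest of the gene is present. Mesenchymal-like cells had 333 CPM at 4 Gy and 261 CPM at 0 Gy, a ratio of 1.28 [1.07–1.52]. B-like cells had 94.2 CPM at 4 Gy and 78.6 CPM at 0 Gy (1.198 [1.08–1.33]), the lowest levels of the 11 classes. T-like cells had 119 CPM at 4 Gy and 108 CPM at 0 Gy (1.11 [1.004–1.22]). The other leukocyte classes had ratios of 0.93 in classical monocyte-like to 1.27 in neutrophil-like cells. At 0 Gy, tumour epithelial-like cells had the highest level and interstitial macrophage-like cells, with 303 CPM, the next. At 4 Gy endothelial-like cells had the highest level, with an interval that overlapped that of tumour epithelial-like cells and lay above those of the other classes.

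Cdkn1a, the cell-cycle inhibitor induced by p53, had a ratio over 1.5 in 9 of the 11 classes, and of 0.96 [0.63–1.48] in nonclassical monocyte-like cells. It stood at 2504.5 CPM at 4 Gy and 434 CPM at 0 Gy in endothelial-like cells, a ratio of 5.77. Its ratio was 8.07 [5.85–11.35] in cDC2-like cells, 3.72 [2.17–6.77] in NK-like cells, 3.18 [2.48–4.12] in mesenchymal-like cells, 2.25 [1.87–2.73] in T-like cells and 1.93 [1.61–2.32] in B-like cells. Tumour epithelial-like cells held 11 Cdkn1a UMIs at 4 Gy and 11 at 0 Gy, too few to place a ratio (2.25 [0.89–5.73]). Mdm2 had 154 CPM at 4 Gy and 53.9 CPM at 0 Gy in endothelial-like cells (2.86 [2.60–3.15]). Sesn2, a stress protein that restrains mTOR, had 60.3 CPM at 4 Gy and 3.47 CPM at 0 Gy there (17.4 [12.6–24.7]).

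**Figure D2:**
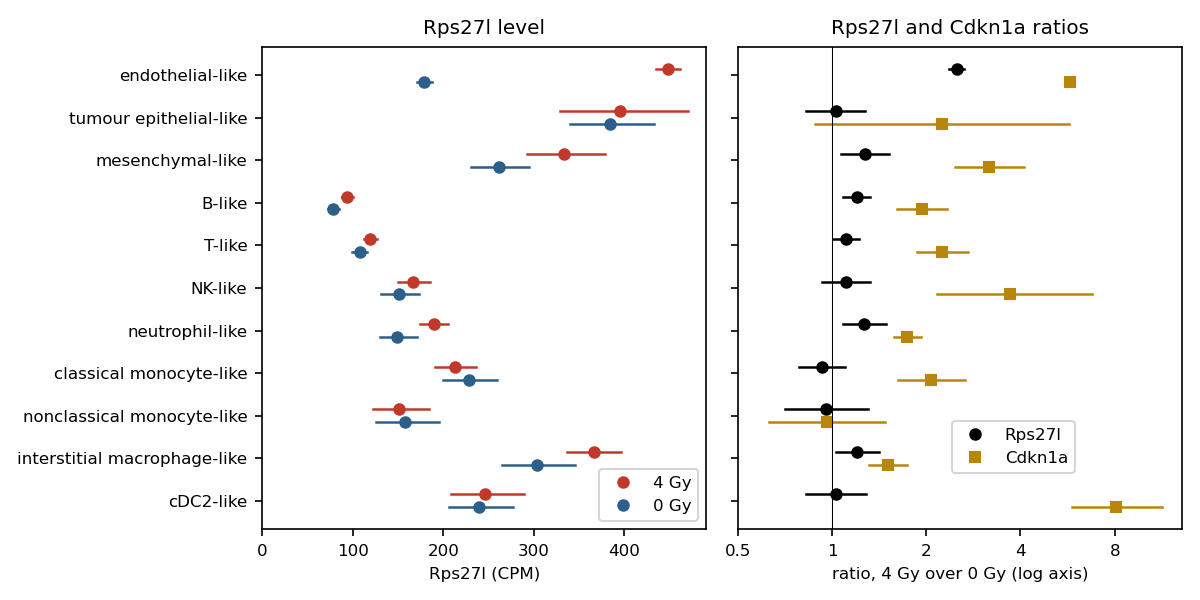
Left, Rps27l in CPM in 11 classes at 4 Gy (red) and 0 Gy (blue) with 95% counting intervals; right, 4 Gy over 0 Gy ratios of Rps27l (black circles) and Cdkn1a (gold squares) on a log axis with 95% counting intervals. Without its copies, Rps27l has a ratio of 2.499 in endothelial-like cells and at most 1.28 in the other classes, while Cdkn1a reaches 8.07 in cDC2-like cells.

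Apart from Rps27l, the members of endothelial-like cells differed little between doses. Of 85 members measured (at least 10 UMIs over both libraries), 1 was at least 1.5-fold higher at 4 Gy, against 2.08% of all 17220 measured genes, and 0 were at least 1.5-fold lower, against 1.14%. At a fold of 1.2, 5 members were higher, against 12.9% of genes, and 4 lower, against 7.63%. The median member had a log2 ratio of -0.07 and the median gene 0.03, with 5 CPM added to both values.

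Families also differed little, but their balance was another one. Of 81 families 8 were at least 1.2-fold higher, against 12.9% of genes, and 0 lower, against 7.63%. The 8 were Rps15, Rps19, Rps25 and Rps27l of the small subunit and Rpl12, Rpl13a, Rpl17 and Rpl23a of the large subunit. Rps19, the small-subunit protein most often mutated in Diamond-Blackfan anaemia, had 1866 CPM at 4 Gy and 1370 CPM at 0 Gy with its copies, a ratio of 1.36 [1.33–1.39]. Rpl13a, which is also released from ribosomes to silence inflammatory mRNAs in human myeloid cells, had 391.6 CPM at 4 Gy and 297 CPM at 0 Gy with its copies, a ratio of 1.32 [1.26–1.38]. The lowest families were Rps4l at 0.83, Rpl38 at 0.85 and Rps27a, made as a fusion with ubiquitin, at 0.87. Of a list of 10 members known to bind Mdm2 (Rpl5, Rpl11, Rpl23, Rpl26, Rps3, Rps7, Rps14, Rps27, Rps27a and Rps27l), 1 was past 1.2-fold as a family, Rps27l. Among all measured genes 12.9% were higher and 7.63% lower by that fold, so a count of 1 in 10 does not set this list apart. The list is not complete, and Rps15 and Rps25, among the 8 families above, have also been reported to bind it in human cells. Rpl5 and Rpl11, which bind Mdm2 together with ribosomal RNA, had family ratios of 1.05 and 0.89.

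Some member columns were misleading on their own. Rpl23a alone had 53 UMIs at 4 Gy and 113 at 0 Gy in endothelial-like cells, a ratio of 0.54 [0.38–0.75], and with its copies 2257 UMIs at 4 Gy and 1937 at 0 Gy, a ratio of 1.33 [1.25–1.42]. Rpl36a alone had 0.61 and with its copies 1.09. Rpl12 alone had 99 UMIs at 4 Gy and 75 at 0 Gy (1.51) and with its copies 1.29. Rps16 alone had 53 UMIs at 4 Gy and 84 at 0 Gy (0.72 [0.50–1.03]). The abundant members Rps24 (0.87), Rpl23 (0.97), Rpl32 (1.04) and Rplp0 (0.87), which were among the 5 highest over all cells with 5475 to 2969 CPM, rest on at least 8396 UMIs each at 4 Gy. The 5 lowest over all cells were Rpl36a, Rpl24, Rpl28, Rpl3l and Rpl39l, at 7.96 to 0.87 CPM, and for the first 3 of these the family held 1131 to 2251 CPM.

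In tumour epithelial-like cells, with 58 cells at 4 Gy, more member columns were lower than higher. Of 82 measured, 36 were at least 1.2-fold lower at 4 Gy, against 30.9% of genes, and 9 at least 1.2-fold higher, against 32.3%. The median member had a log2 ratio of -0.23, and the median gene 0.01. With copies summed, 18 of 81 families were lower, against 30.9% of genes, and 5 higher, against 32.3%. Both are smaller parts than among all genes, and the median family had a log2 ratio of -0.16. Rpl5 had the highest family ratio, with 1472 CPM at 4 Gy and 1053 CPM at 0 Gy (1.40 [1.24–1.57]), followed by Rpl23a at 1.37 and Rpl12 at 1.33. Rps28 had the lowest, with 1592 CPM at 4 Gy and 2185 CPM at 0 Gy (0.73 [0.66–0.81]), followed by Rpl30 and Rpl10a at 0.75. By single columns the highest were Rps10 at 1.49, Rpl32l at 1.35 and Rps12 at 1.28, and the lowest Rpl11 at 0.69, Rpl10a at 0.69 and Rps29 at 0.70. Rps10 summed with its copies was 0.92, so its direction turned. Of the genes of ribosome biogenesis, 8 of 18 measured were at least 1.2-fold higher, against 32.3% of genes, and 1 lower, against 30.9%, with a median log2 ratio of 0.20.

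Mesenchymal-like cells had 14 of 83 members at least 1.2-fold higher at 4 Gy, against 23.6% of genes, and 6 lower, against 27.1%. Of 1739 genes at 100 CPM or more in this class, 223 were higher and 291 lower. Against these the members higher were a larger part, not a smaller one. As families, 10 of 81 were higher and 0 lower, with a median log2 ratio of 0.09. Rpl17 (1.40 [1.29–1.52]), Rpl23a (1.39 [1.204–1.60]) and Rpl13a (1.29 [1.14–1.46]) were the highest of the families named here. Rpl13a, Rpl17 and Rpl23a were at least 1.25 in all 3 classes without CD45. Those classes come from the same pair of libraries. Of the ribosome biogenesis genes in mesenchymal-like cells, 11 of 20 measured were at least 1.2-fold lower, against 27.1% of genes, and 1 higher, against 23.6%, with a median log2 ratio of -0.36.

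In leukocytes the single columns and the families gave different counts. In B-like cells 12 of 86 members were at least 1.5-fold higher at 4 Gy, against 1.52% of genes, and 3 at least 1.5-fold lower, against 0.501%. At a fold of 1.2 the counts were 22 higher, against 11.1% of genes, and 20 lower, against 5.9%. T-like cells had 14 of 86 members at least 1.5-fold higher, against 1.71% of genes, and 1 lower, against 0.669%. At a fold of 1.2 they had 27 higher, against 10.1%, and 17 lower, against 9.24%. With copies summed, B-like cells had 1 family of 82 at least 1.2-fold higher and 11 lower, and T-like cells 1 higher and 7 lower.

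The 3 highest columns with at least 100 UMIs in each of these classes lay closer to 1 with their copies summed. Rps16 had 79.5 CPM at 4 Gy and 20.4 CPM at 0 Gy in B-like cells, a ratio of 3.91 [3.30–4.64]. Its family had 5983 CPM at 4 Gy and 5649 CPM at 0 Gy, a ratio of 1.06 [1.05–1.07], and its own column held 1.33% of the family at 4 Gy and 0.360% at 0 Gy. Rpl10a had 1.99 alone and 1.17 with its copies, and Rpl23a 1.87 alone and 1.001 with its copies. In T-like cells Rps16 had 3.66 alone and 1.13 with its copies, Rpl10a 1.998 alone and 1.17 with its copies, and Rpl36a 1.88 alone and 0.93 with its copies. The own column's part of the family moved by over 5 percentage points for 26 of 77 members in B-like cells and 25 of 77 in T-like cells, and for 0 of 77 in endothelial-like cells. Over the 8 classes with CD45 this held for 21 to 27 members, and over the 3 without CD45 for 0 to 3. The reads behind this placement were not analysed here. The labels and notes do not say if both libraries with CD45 were aligned and counted with like settings and read length. That doubt bears on every leukocyte ratio given, before and after this point, those of shares and families too. Its part in the ratios was not tested. For members with copies, mainly the family ratios are described.

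**Figure D3:**
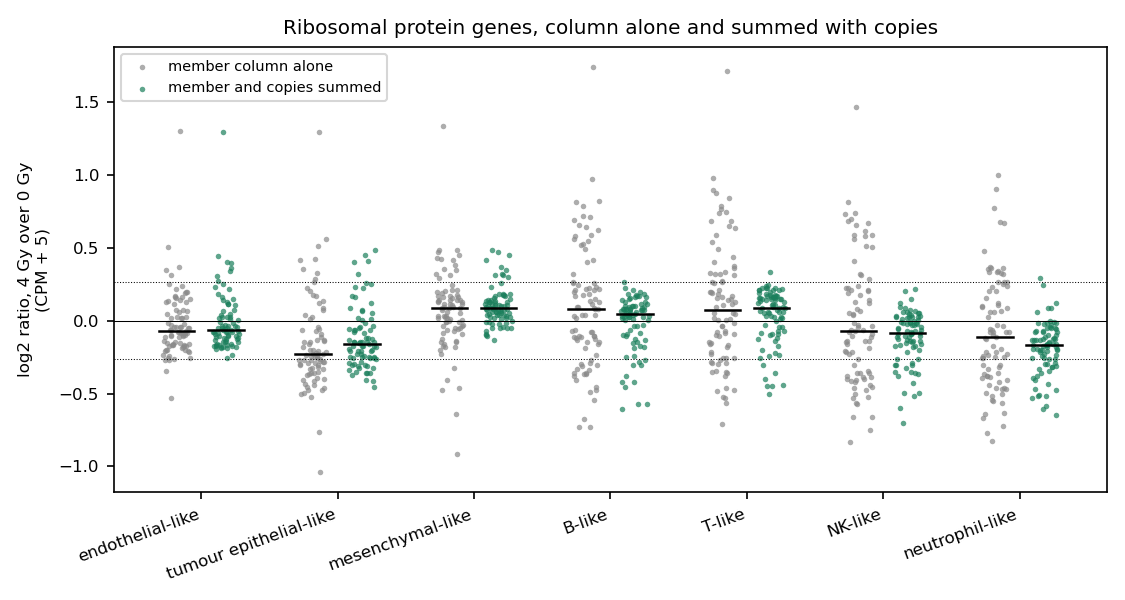
Log2 ratio of 4 Gy over 0 Gy, with 5 CPM added, for each measured member column alone (grey) and summed with its copies (green) in 7 classes; black bars are medians and dotted lines a fold of 1.2. In B-like and T-like cells the grey points spread widely while most green points lie inside the dotted lines, and in endothelial-like cells Rps27l stands alone above 1 in both.

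Over all gates, 32 members had a column past 1.5-fold with at least 100 UMIs in at least 1 gate. The part of all genes that pass by the same rule in any gate was not counted. The count of 32 therefore has no background, and shares of all genes past 1.5-fold are given above for single classes only. In leukocytes, Rpl10a, Rpl11, Rpl18, Rpl35, Rplp1, Rps19, Rps20, Rps25, Rps3a1, Rps4x and Rpsa were among those past it upwards in several classes, with Rps16 the highest at up to 8.16 (naive-like CD8 T cells). Rpl37, Rpl37a, Rps28, Rps29, Rpl3, Rps12, Rps13 and Rpl22l1 were past it downwards in leukocytes, with ratios of 0.51 to 0.66. Rpl23a, Rpl36a, Rpl32l, Rps15a, Rps18, Rps26, Rps27, Rps3a3 and Rps6 were past it in 1 gate each, and Rps27l in all 6 endothelial gates. Rps20 was also 0.58 in aerocyte-like cells. As families 6 passed 1.5-fold, a count that has no background either. These were Rps27l in the 6 endothelial gates, Rps19 in aerocyte-like cells (1.55), and Rps23, Rps27, Rps28 and Rps29 downwards in leukocytes (0.61 to 0.66).

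Several families were lower at 4 Gy in all 8 leukocyte classes. Rps29, a short zinc-binding protein of the small subunit, had 1033 CPM at 4 Gy and 1575 CPM at 0 Gy in B-like cells, a ratio of 0.66 [0.64–0.67]. In T-like cells it had 1275 CPM at 4 Gy and 1808 CPM at 0 Gy (0.71 [0.69–0.72]), and over the 8 leukocyte classes its ratio ran from 0.65 to 0.75. Rps27 had 4444 CPM at 4 Gy and 6594 CPM at 0 Gy in B-like cells (0.67 [0.67–0.68]), and 0.67 to 0.76 over the 8 classes. Rps28 ran from 0.61 to 0.85, Rps23, which forms part of the decoding centre, from 0.63 to 0.76, Rpl37 from 0.70 to 0.82 and Rpl37a from 0.70 to 0.83. The 11 families at least 1.2-fold lower in B-like cells were Rps21, Rps23, Rps27, Rps28 and Rps29 of the small subunit, Rpl13a, Rpl37, Rpl37a, Rpl38 and Rpl41 of the large subunit, and Rplp2 of the stalk. In endothelial-like cells the same 11 lay between 0.85 (Rpl38) and 1.32 (Rpl13a). The 8 leukocyte classes share 1 pair of libraries, so their likeness to each other is not a replicate.

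Members for which the search found no copy had ratios on both sides of 1. Rplp2, which with Rplp1 binds elongation factors at the stalk, had 1652 CPM at 4 Gy and 2040 CPM at 0 Gy in B-like cells (0.81 [0.79–0.83]) and 2240 CPM at 4 Gy and 2674 CPM at 0 Gy in T-like cells (0.84 [0.82–0.86]). It ran from 0.72 to 0.87 over the 8 leukocyte classes, and was 1.08 [1.04–1.12] in endothelial-like cells. Rpl8, a large-subunit protein near the peptidyl transferase centre, had 3834 CPM at 4 Gy and 3187 CPM at 0 Gy in B-like cells (1.203 [1.18–1.22]) and 4409 CPM at 4 Gy and 3505 CPM at 0 Gy in T-like cells (1.26 [1.24–1.28]). It ran from 1.06 to 1.26 in leukocytes and was 0.89 [0.87–0.92] in endothelial-like cells, 862 CPM at 4 Gy and 968 CPM at 0 Gy. Rpl8 was the only family past 1.2-fold upwards in B-like cells and in T-like cells, with Rpl10a and Rpl9 next in B-like cells (1.17 and 1.16) and Rps6 and Rpl9 next in T-like cells (1.19 and 1.18).

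**Figure D4:**
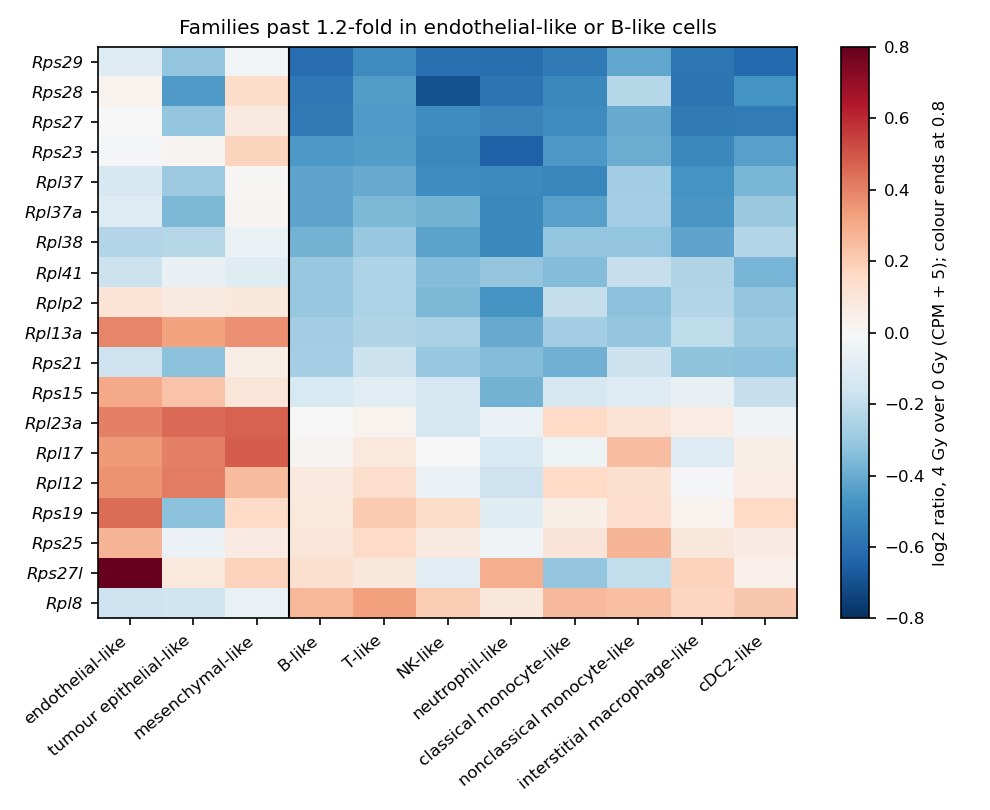
Log2 ratio of 4 Gy over 0 Gy (5 CPM added) of the 19 families past 1.2-fold in endothelial-like or B-like cells, in 3 classes without CD45 (left of the black line) and 8 with CD45; red is higher and blue lower at 4 Gy, and the colour ends at 0.8. The blue block of Rps29 to Rps21 spans the leukocyte classes, Rpl13a is red without CD45 and blue with it, and Rps27l is dark red in endothelial-like cells.

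NK-like and neutrophil-like cells, whose share ratios moved above 1 in cells of 1000 to 5000 UMIs, had more families lower than higher over all cells. NK-like cells had 19 of 83 members at least 1.2-fold higher, against 27.4% of genes, and 26 lower, against 15.7%. As families 0 of 81 were higher and 17 lower. Most members are abundant, and of 1685 genes at 100 CPM or more in NK-like cells 249 were higher and 245 lower. Against these the members higher were a larger part, not a smaller one. Neutrophil-like cells had 16 of 85 members higher, against 16.6% of genes, and 29 lower, against 25.3%. As families 1 of 82 was higher and 24 lower. Of 1639 genes at 100 CPM or more in neutrophil-like cells, 222 were higher and 282 lower. Rps23 was lowest in neutrophil-like cells, with 331 CPM at 4 Gy and 522 CPM at 0 Gy (0.63 [0.58–0.70]). Rps27l was the family that was higher there (1.23 [1.07–1.41]).

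The length of the mRNA was looked at after the ratios were seen, since several of the lower families have short mRNAs. Length was that of the member's transcript marked as principal in GENCODE M21, the longest where there were several. It need not be that of the mRNA present in these cells, and was 5179 bases for Rps15a and 3706 for Rps20. The 10 families whose mRNA is under 500 bases had a median log2 ratio of -0.26 in B-like cells and -0.19 in T-like cells, while the 70 longer ones had 0.05 in B-like cells and 0.11 in T-like cells. In endothelial-like cells the medians were 0.01 for the short and -0.06 for the long families. Spearman's rho between mRNA length and log2 ratio, as a description over 80 families of the same libraries, was 0.33 in B-like, 0.41 in T-like and -0.05 in endothelial-like cells, and 0.22 to 0.42 over the 8 leukocyte classes. Other genes under 500 bases and at 100 CPM or more, which are no member or copy, had a median of -0.04 in B-like cells (9 genes), -0.29 in T-like cells (13 genes) and -0.26 in endothelial-like cells (10 genes). The part of length in these ratios was not tested.

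**Figure D5:**
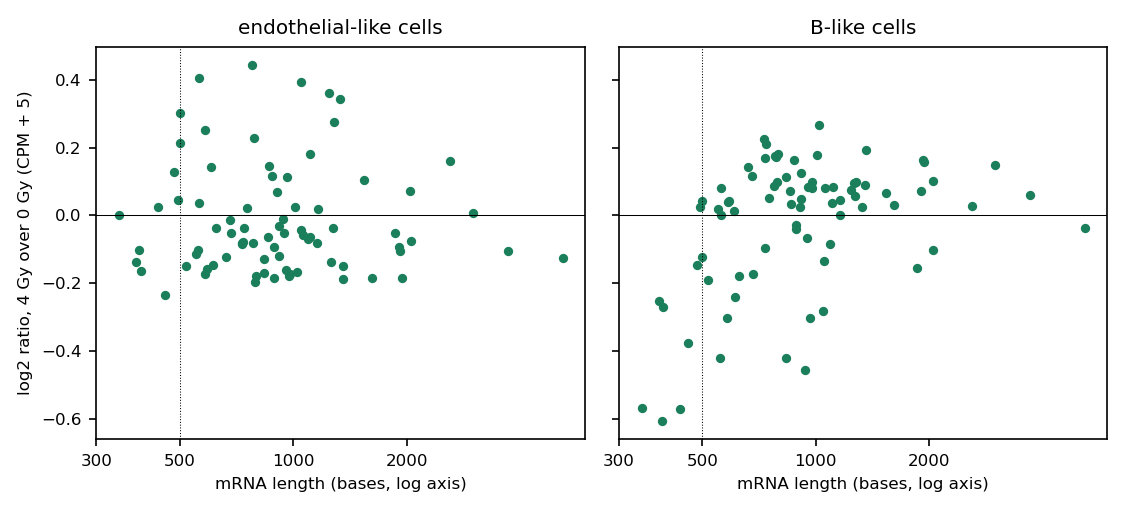
Log2 ratio of 4 Gy over 0 Gy (5 CPM added) against annotated mRNA length in bases on a log axis, 1 point for each family, in endothelial-like (left) and B-like cells (right); the dotted line marks 500 bases, and Rps27l is left out because its endothelial-like ratio of 2.47 lies beyond the axis. In B-like cells the lowest points lie at short lengths, with a median of -0.26 under 500 bases, and in endothelial-like cells short families have a median of 0.01.

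By role, the subunits had medians close to each other. In endothelial-like cells the 33 small-subunit families had a median log2 ratio of -0.09, the 45 measured large-subunit families -0.05 and the 3 stalk families 0.11. In B-like cells the small-subunit families had a median of 0.07 with 5 at least 1.2-fold lower, the large-subunit families 0.03 with 5 lower and the stalk families 0.04 with 1 lower. Among all measured genes of B-like cells 5.9% were lower by that fold. The 10 listed members that bind Mdm2 had a family median of -0.03 in endothelial-like and 0.09 in B-like cells, and the 10 members mutated in Diamond-Blackfan anaemia, an inherited failure of red cell production, -0.07 in endothelial-like and 0.03 in B-like cells.

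The other paralogs were marked by cell class more than by dose. Rpl22l1, a relative of Rpl22 whose level goes up in mice when Rpl22 is lost, had 537 CPM at 4 Gy and 731 CPM at 0 Gy in tumour epithelial-like cells (0.73 [0.61–0.88]), against 113 CPM at 4 Gy and 119 CPM at 0 Gy in endothelial-like cells. With copies it made up 45.7% of the Rpl22l1 and Rpl22 pair at 4 Gy and 50.7% at 0 Gy in tumour epithelial-like cells, and 27.9% at 4 Gy and 28.4% at 0 Gy in endothelial-like cells. Its family ratio was 0.78 [0.70–0.87] in tumour epithelial-like cells. In leukocytes its own column had 0.81 in B-like, 0.79 in T-like and 0.53 [0.41–0.71] in neutrophil-like cells, while with copies it had 1.01 [0.98–1.05] in B-like, 0.97 [0.94–1.004] in T-like and 0.79 [0.68–0.93] in neutrophil-like cells. Rps4l, a copy-like relative of Rps4x, was high without CD45, with 144 CPM at 4 Gy and 174 CPM at 0 Gy in endothelial-like cells (0.83 [0.78–0.89]) and 147 CPM at 4 Gy and 106 CPM at 0 Gy in mesenchymal-like cells (1.38 [1.05–1.82]), and between 4.59 and 32.4 CPM in leukocytes. Rpl3l, a form of Rpl3 known from skeletal and heart muscle, was found in nonclassical monocyte-like cells (25.1 CPM at 4 Gy and 22.8 CPM at 0 Gy) and neutrophil-like cells (14.5 CPM at 4 Gy and 15.5 CPM at 0 Gy), on 12 to 45 UMIs each, and had 0 UMIs in endothelial-, tumour epithelial- and mesenchymal-like cells at both doses. Rpl39l, known from testis, had 0 to 9 UMIs in every class. Rpl7l1, which acts in ribosome assembly, made up 10.1% of the Rpl7l1 and Rpl7 columns at 4 Gy and 9.14% at 0 Gy in endothelial-like cells. Rpl6l took 85.8% of the Rpl6l and Rpl6 columns at 4 Gy and 87.6% at 0 Gy there, and Rpl32l 3.53% of its pair with Rpl32 at 4 Gy and 3.10% at 0 Gy, but these pairs are near-identical in sequence and the split between them is uncertain.

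Ribosomal proteins outside the naming rule were read as well. Rack1, a signalling scaffold on the small subunit, had a ratio of 1.09 in endothelial-like and 1.14 in B-like cells. Fau, a fusion of a ubiquitin-like protein with a small-subunit protein, had 0.96 in endothelial-like and 1.07 in B-like cells, and Rpl36al 0.93 in endothelial-like and 1.04 in B-like cells. The copies of these genes were not summed.

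Other mRNAs of the pyrimidine-tract class and elongation factors, 16 genes, had a median log2 ratio of -0.04 in endothelial-like and 0.06 in B-like cells. In endothelial-like cells Eef2, which moves the ribosome along, had 423 CPM at 4 Gy and 349 CPM at 0 Gy (1.21 [1.16–1.27]). It was the 1 gene past 1.2-fold, against 12.9% of all genes higher and 7.63% lower. Tpt1 had 1.14, Eef1d 0.83 and Eif3f 0.85. In B-like cells Eef1d had 1.22, Eef2 1.17, Btf3 0.83 and Tpt1 2032 CPM at 4 Gy and 2765 CPM at 0 Gy (0.73 [0.72–0.75]). There 1 of the 16 was past the fold in each direction, against 11.1% of all genes higher and 5.9% lower. Of 22 ribosome biogenesis genes, 0 were past 1.2-fold in endothelial-like cells (against 12.9% of all genes higher and 7.63% lower) by the log2 ratio with 5 CPM added, where Polr1a (1.28), Polr1b (1.25), Gar1 (0.86) and Nop10 (0.92) were the outermost by the plain ratio. In B-like cells 7 were higher, against 11.1% of all genes, and 0 lower, against 5.9%, with Polr1b, a subunit of RNA polymerase I, at 1.71 [1.15–2.59] on 80 UMIs at 4 Gy and 38 at 0 Gy, Utp4 at 1.48, Ltv1 at 0.91 and Nop10 at 0.92.

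Of 10 regulators, 3 were at least 1.2-fold higher in endothelial-like cells, against 12.9% of all genes, and 0 lower, against 7.63%. Sesn2 and Mdm2 stood far above the others, and Trp53 (0.91) and Sesn1 (0.92) were lowest. In B-like cells 1 was higher, against 11.1% of all genes, and 0 lower, against 5.9%. Myc, which drives ribosome production, had 23.7 CPM at 4 Gy and 13.04 CPM at 0 Gy there (1.82 [1.44–2.31]), Mdm2 had 1.17, Mtor 0.94 and Eif4ebp2 0.90. Of 78 mitochondrial ribosomal protein genes, which serve the separate ribosome of mitochondria, 1 was higher, against 12.9% of all genes, and 2 lower, against 7.63%, in endothelial-like cells with a median log2 ratio of -0.09, against -0.07 for the cytosolic members. Mrpl45 (1.27) and Mrps22 (1.21) were highest and Mrps33 (0.76 [0.66–0.89]) and Mrps6 (0.80) lowest. In B-like cells 3 of 77 measured were higher, against 11.1% of all genes, and 0 lower, against 5.9%, with Mrpl28 at 1.32, Mrpl23 at 1.30, Mrps27 at 0.81 and Mrpl44 at 0.83.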

How the data were processed

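The authors deposited 1 table per library of log2 values, cells by 20640 genes. Raising 2 to each of these log2 values and taking away 1 gave numbers that add up to CPM totals cell by cell. At least 99.999% of those were an integer times the cell's lowest one (tolerance 0.02), so the unit is log2(CPM + 1) and whole UMIs could be recovered. The submitters' processing notes name STAR, Partek, Seurat and mm10; their roles and settings are not given in the sources used here. Count tables had been planned for, and no count model was run. The members, the lists and the length comparison were chosen with earlier results of these data known.

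Scrublet, run on each library in scanpy 1.11.5, gave doublet scores. The automatic threshold marked under 0.5% in 3 libraries, where the highest scores up to 0.8% per 1000 cells were removed (149 barcodes at 4 Gy and 286 at 0 Gy without CD45, 235 at 0 Gy with CD45); it removed 608 at 4 Gy with CD45. Cells kept were 4164 at 4 Gy and 5693 at 0 Gy without CD45, and 9000 at 4 Gy and 5180 at 0 Gy with CD45. Subsets of endothelial-like cells needed 2 subset markers and a unique leader; T-like subsets needed Cd8a or Cd8b1 without Cd4, or Cd4 without both, and more naive-like than effector-like markers or the reverse. UMIs were summed over the cells of a class and divided by the class total. Molecules were counted at the 3′ end, so levels of different genes are not scaled by length.

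Copies were found with blastn 2.17.0 in GENCODE M21 transcripts, in which 20304 columns were found. Intervals at 95% are exact binomial (Clopper-Pearson) for shares and exact conditional binomial for ratios. Ratios are plain CPM ratios, and counts past a fold and medians use log2(CPM + 5). The ratios were tested on simulated data. Named genes were the 3 highest and 3 lowest members with at least 100 UMIs in the endothelial-like, tumour epithelial-like, B-like and T-like classes, each member past 1.5-fold, all paralog pairs, Rps27l in each class, the 5 highest and 5 lowest members by level, and the 2 highest and 2 lowest genes of each other list. The mesenchymal-like class was added to these after its values were seen, as were the members with no copy and the families. Python 3.11.15, numpy 2.4.6, pandas 2.3.3 and scipy 1.17.1 were used. Some genes that the rule for named genes would name are not reported here.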

Additional observations from a re-analysis of the deposited data

Results flagged for a closer look

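Shares of UMIs on members and copies differed in direction between classes under the same contrast. The 4 Gy over 0 Gy ratio was 0.908 in tumour epithelial-like cells and 1.063 in mesenchymal-like cells. It was 0.952 in naive-like CD8 T cells and 1.05 in effector-like CD8 T cells, and 0.952 in naive-like CD4 T cells and 1.03 in effector-like CD4 T cells. The naive-like direction turned in cells of 1000 to 5000 UMIs, with 1.027 for CD8 and 1.014 for CD4, and for CD4 also with cells thinned to 1000 UMIs (1.005). The Rpl13a family had a ratio of 1.32 in endothelial-like cells and 0.823 in B-like cells. With 1 library for each dose and sort, these differences were not tested.

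Cells outside the comparisons carried these mRNAs too. Endothelial-gated cells that were sorted with CD45 (69 at 4 Gy and 52 at 0 Gy) had 13.15% of their UMIs on members and copies at 4 Gy and 11.3% at 0 Gy. Among sorted leukocytes, cells with at least 3 cycling markers (92 at 4 Gy and 65 at 0 Gy) had 22.0% at 4 Gy and 20.9% at 0 Gy.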

How the results depend on the processing

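No paired analysis was possible because each dose and sort is 1 library. The member share ratio was 0.957 in endothelial-like cells (0.970 thinned to 1000 UMIs per cell, 0.963 in cells of 1000 to 5000 UMIs, 0.967 as the median over cells, 0.9775 with copies), 0.898 in tumour epithelial-like cells (0.914 with doublets kept, 0.941 as the median over cells), 1.012 in B-like cells (1.007 thinned, 1.008 in cells of 1000 to 5000 UMIs, 1.004 as the median, 1.001 with copies) and 1.059 in T-like cells (1.082 thinned, 1.118 in cells of 1000 to 5000 UMIs, 1.14 as the median, 1.045 with copies). It turned to 1.013 in NK-like cells of 1000 to 5000 UMIs, and in neutrophil-like cells to 1.037 at that depth and 1.025 as the median. Members at least 1.2-fold higher and lower in endothelial-like cells numbered 5 and 4, but 3 and 0 with 50 CPM added, 8 and 0 with copies, 8 higher when thinned, and 9 lower with median-of-ratios scaling. In tumour epithelial-like cells 9 were higher and 36 lower, but 5 higher with 50 CPM added or at least 100 UMIs, and 5 and 18 with copies; in B-like cells 1 and 11, and in T-like cells 1 and 7, with copies. Rps27l in endothelial-like cells had a ratio of 2.68 as a mean over cells, 2.66 thinned and 2.34 in arterial-like cells, and its part of the pair with Rps27 was higher by 4.86 percentage points at 4 Gy, or 17.4 with copies. With copies Rpl36a turned to 0.934 in T-like and 1.09 in endothelial-like cells, Rpl23a to 1.33 in endothelial-like cells and Rps10 to 0.919 in tumour epithelial-like cells. The cause was not tested, beyond the copies' own construction. Of the 261 other values, 222 moved by less than their counting interval, 32 by more and 7 turned direction. Tumour epithelial-like cells were too few for thinning, the depth window or a stricter gate. The copies, the Lyve1 split and the T-like subsets were chosen after seeing the data.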
